A study of Mus musculus with 2 samples.

Results

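The peaks described here are the 5-hydroxymethylcytosine (5hmC) peaks that lie in and around the vomeronasal receptor genes in prospermatogonia, the germ cells of the fetal mouse testis. A peak was taken when its midpoint lay on an autosome within 50 kb of a protein-coding gene whose symbol begins with Vmn1r or Vmn2r. Chromosome 7 from 6.4 to 7.2 Mb was left out. This rule gave 757 peaks of the 106034 autosomal peaks and of the 108395 peaks in the deposited list. Of these, 393 lay near Vmn1r genes alone, 352 near Vmn2r genes alone and 12 near both families. The study collected wild-type (genotype WT) cells at embryonic day 17.5 and pooled 30000 of them from several embryos. The samples are 1 library captured by 5hmC-Seal and 1 made before the capture step, both marked as batch 1, and only the peak list of the captured library was used. In 5hmC-Seal, 5hmC is tagged with a modified glucose that carries biotin, and the tagged fragments are pulled down on streptavidin. A pool of cells gives an average over cells and embryos. A list of 5hmC peaks holds no expression value, so the cell type label was not checked against marker genes. The captured library has no replicate and its depth is unknown. With 1 library no test over samples could be run, and each comparison describes regions of 1 library, with intervals for counting error only.

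Vomeronasal receptors are G-protein-coupled receptors that detect pheromones and other social signals in the vomeronasal organ of the nose. Vmn1r genes encode V1R receptors, whose coding sequence mostly sits in a single exon and which signal through the G-protein subunit encoded by Gnai2. Vmn2r genes encode V2R receptors, which have a large extracellular domain, several coding exons and a signalling partner encoded by Gnao1. Both families lie in tandem clusters of similar copies, interspersed with pseudogenes. 5hmC is made from 5-methylcytosine by the TET enzymes, and in mammals 5-methylcytosine lies mostly at CG dinucleotides.

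The receptor peak with the highest fold covered 1 of the 2 annotated starts of Vmn2r29, the one at the end of its span, so the sequence before that start is shown first, beside receptor promoters that no peak touched. Each sequence is the 250 bases before the annotated start, 5′ to 3′ on the strand of the gene, from the RefSeq promoter table of build GRCm38.p6. Capitals mark every CG dinucleotide, which reads the same on both strands. The Vmn2r29 window is chr7:7278290-7278539 on the minus strand. Vmn2r1 (chr3:64081392-64081641, plus strand) had the next highest CG count among Vmn2r genes, a count it shared with 2 other Vmn2r genes. Vmn1r54 (chr6:90268856-90269105, plus strand) had the highest CG count among Vmn1r genes. Vmn1r124 (chr7:21260618-21260867, minus strand) had a peak that began 357 bp from its start and did not reach into the window shown.
Vmn2r29: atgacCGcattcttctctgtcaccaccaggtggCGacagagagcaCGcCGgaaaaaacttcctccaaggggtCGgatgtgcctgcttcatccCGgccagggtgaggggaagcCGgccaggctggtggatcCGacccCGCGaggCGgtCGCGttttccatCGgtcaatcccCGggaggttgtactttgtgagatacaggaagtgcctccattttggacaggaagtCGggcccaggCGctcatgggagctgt
Vmn2r1: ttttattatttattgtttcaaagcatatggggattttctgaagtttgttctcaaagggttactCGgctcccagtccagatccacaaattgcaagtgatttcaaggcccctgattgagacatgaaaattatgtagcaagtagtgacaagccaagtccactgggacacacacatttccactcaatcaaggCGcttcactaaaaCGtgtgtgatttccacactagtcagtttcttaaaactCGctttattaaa
Vmn1r54: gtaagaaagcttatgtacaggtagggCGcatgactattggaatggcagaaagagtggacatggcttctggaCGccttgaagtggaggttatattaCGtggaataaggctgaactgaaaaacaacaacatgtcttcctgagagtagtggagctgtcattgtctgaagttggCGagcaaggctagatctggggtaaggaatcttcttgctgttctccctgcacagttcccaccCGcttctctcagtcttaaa
Vmn1r124: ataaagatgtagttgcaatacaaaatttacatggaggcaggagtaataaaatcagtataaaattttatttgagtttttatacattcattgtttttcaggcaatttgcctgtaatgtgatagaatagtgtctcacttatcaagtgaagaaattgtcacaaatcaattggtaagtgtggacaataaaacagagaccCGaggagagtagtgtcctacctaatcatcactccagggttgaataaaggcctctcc

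The Vmn2r29 window held 17 CG, Vmn1r54 held 5, Vmn2r1 held 4 and Vmn1r124 held 1. Receptor promoters are poor in CG, and this window of Vmn2r29 stood apart from the others. The window of the other annotated start of Vmn2r29 (chr7:7247329-7247578, minus strand) held 0 CG and was not overlapped by a peak. The table had windows for 322 of the 351 receptor genes. The median was 1 CG in the 206 windows of Vmn1r genes and 1 CG in the 117 windows of Vmn2r genes, against 10 CG in all 20085 windows of autosomal protein-coding genes. No CG at all was found in 26.2% of Vmn1r windows, 36.8% of Vmn2r windows and 6.31% of all windows, so 93.7% of all windows hold at least 1. Windows of olfactory receptor genes were poor in CG too, with a median of 1 CG in 942 windows and no CG in 44.5%. The count of Vmn2r29 was reached or passed by 32.5% of all windows, but by no other receptor gene, where the highest count was 5.

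**Figure D1:**
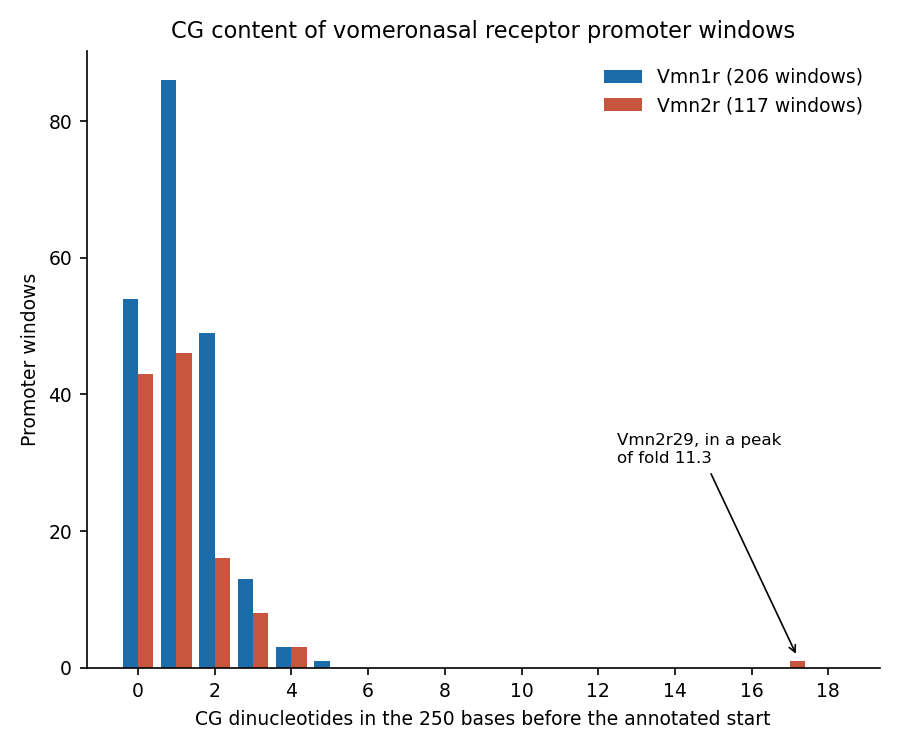
Number of receptor promoter windows (vertical axis) by the number of CG dinucleotides in the 250 bases before the annotated start (horizontal axis), for Vmn1r and Vmn2r genes. 1 of the 2 windows of Vmn2r29 stands alone at 17 CG, and every other window has 5 or fewer.

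A peak overlapped 1 of the 323 receptor promoter windows, the CG-rich one of Vmn2r29, against a background of 3.83% of windows of all autosomal protein-coding genes. For Vmn1r the count was 0 of 206 (exact 95% interval 0 to 1.77%), and for Vmn2r 1 of 117, or 0.855% (0.0216 to 4.67%). The upper bound for Vmn1r lies below the background, while the interval for Vmn2r includes it. Of 942 windows of olfactory receptor genes, 10 were overlapped by a peak (1.06%, 0.510 to 1.94%). The Vmn2r29 peak ran from 7277503 to 7278581 on chromosome 7, a width of 1079 bp, at a deposited fold enrichment of 11.3 and a −log10 q of 19.4. It contained all 250 bases of the window and 787 bp of the gene. By fold it ranked 2 among the 769 protein-coding promoter windows with a peak, behind Parp2 at 16.3. Peaks were rare over windows as rich in CG as this one. Of 5354 protein-coding windows with 10 to 19 CG, 52 (0.971%) were overlapped by a peak, against 571 of 5357 (10.7%) with 3 to 9 CG. Among all receptor windows, 197 held 1 or 2 CG, and none of these was overlapped, while 3.90% of all protein-coding windows in that class were. Vmn2r29 spans 65.3 kb on the minus strand (chromosome 7, 7212996 to 7278289) and contained a further strong peak near its start, from 7270917 to 7272639 at fold 8.26, and a weak one from 7222505 to 7222757 at fold 2.94. A neighbouring chloride channel gene, Clcn4 (7282309 to 7300916), had no peak at its ends, and its highest peak was at fold 3.33.

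Few receptor genes of either family had a peak within 1 kb of an end of their span. Such a gene-end peak was found at 9 of 229 Vmn1r genes (3.93%; exact 95% interval 1.81 to 7.33%) and 5 of 122 Vmn2r genes (4.10%; 1.34 to 9.31%), against a background of 27.9% of autosomal protein-coding genes. The shares of both families overlap widely. Vmn1r genes are short, with a median span of 0.924 kb, and 187 of 229 span less than 1 kb. Such short spans hold little beyond a coding exon, so the annotated start used here need not be where transcription begins. Other protein-coding genes with a span between 0.900 and 1.75 kb, the central range of Vmn1r, had a gene-end peak at 155 of 1574 (9.85%; 8.42 to 11.4%). Other genes with a span in the central range of Vmn2r, 11.3 to 40.9 kb, had one at 2144 of 6916 (31.0%). Both receptor families thus had lower shares than other genes of like span, with intervals that do not overlap. The low share was not particular to them. Olfactory receptor genes, with a median span of 0.951 kb, had a gene-end peak at 32 of 1103 (2.90%, 1.99 to 4.07%). That interval overlaps those of both families. Olfactory receptor genes were not taken out of the other genes of like span, so the shares of those genes include them. At a −log10 q of 5 or more, 5 Vmn1r genes (2.18%) and 2 Vmn2r genes (1.64%) were left, against a background of 1.31%. Among other genes of like span, 9 of 1574 (0.572%; 0.262 to 1.08%) in the Vmn1r range and 93 of 6916 (1.34%) in the Vmn2r range had such a peak. The Vmn1r interval at this q, 0.713 to 5.02%, overlaps that of genes of like span, so the lower share seen with all peaks was not seen with strong ones, and the value itself was higher.

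Most gene-end peaks lay beside the gene rather than on it. Of 15 peaks at the ends of 14 genes, 10 did not overlap the gene and began 357 to 960 bp from it. This placement was not compared with that at other genes, and 187 of 229 Vmn1r genes are shorter than the 1 kb window. The strongest after Vmn2r29 was at Vmn1r88 (chromosome 7, 13177719 to 13178669), where a peak of fold 8.52 from 13176517 to 13177068 lay 650 bp away. Vmn1r238 on chromosome 18 had a peak of fold 7.37 and 8.20 kb in width at 813 bp from the gene. At Vmn1r124 the fold was 6.34, and at Vmn2r69 a peak of fold 6.07 lay 816 bp before the start. Vmn1r2 was flanked by a peak of 9.11 kb at fold 5.76, and Vmn1r56 by one of fold 5.30. These genes, with Vmn2r29, are those whose gene-end peak had a −log10 q of 5 or more. Vmn1r65 had a peak at both ends, of fold 5.02 and 4.39, and 24.9% of its span was covered. The others were weaker, with 5.02 at Vmn1r167, 4.76 at Vmn1r20, 4.21 at Vmn2r2, 3.96 at Vmn2r82, 3.73 at Vmn2r79 and 3.41 at Vmn1r48. In the 14 genes, 6 peaks lay on the side of the start, 5 on the side of the end and 4 at genes whose strand is not in the promoter table.

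Peaks within the gene span were commoner in Vmn2r genes, which are longer (median span 24.6 kb). A peak overlapped the span of 4 of 229 Vmn1r genes (1.75%; 0.478 to 4.41%) and 29 of 122 Vmn2r genes (23.8%; 16.5 to 32.3%), against a background of 64.3% of autosomal protein-coding genes. Other genes of the Vmn2r span range were overlapped in 76.0% of cases (74.9 to 77.0%), and those of the Vmn1r range in 6.48% (5.31 to 7.81%). Olfactory receptor genes, not taken out of these other genes, were overlapped at 43 of 1103 (3.90%; 2.84 to 5.22%). Their interval overlaps that of Vmn1r genes. Of the 29 Vmn2r genes, 13 held at least 2 peaks and 6 at least 3. Vmn2r1, whose group is co-expressed broadly in V2R neurons, held the most, with 7 peaks in 143 kb and a highest fold of 7.03. Its span contains that of Vmn2r2, so the 3 peaks of Vmn2r2 are also counted for Vmn2r1. Vmn2r56 held 4 peaks (highest fold 6.34) and Vmn2r22, Vmn2r29 and Vmn2r60 held 3 each (5.69, 11.3 and 7.19). The median share of the span covered in the 29 genes was 2.47%.

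Pseudogenes of the families are shorter than the genes, with median spans of 0.851 kb for Vmn1r and 3.22 kb for Vmn2r, so shares overlapped by a peak are not like for like. A peak overlapped 3 of 137 Vmn1r pseudogenes (2.19%; 0.454 to 6.27%) and 19 of 128 Vmn2r pseudogenes (14.8%; 9.18 to 22.2%). The corresponding gene-end shares were 6.57% (3.05 to 12.1%) and 6.25% (2.74 to 11.9%). Each interval overlaps that of the protein-coding genes of the same family, and the differences were not tested.

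Peak density was lowest inside the receptor genes and next to them. In Vmn1r regions it was 11.3 peaks per Mb inside genes (95% Poisson interval 3.09 to 29.0) and 8.86 within 1 kb (2.41 to 22.7). It was 25.5 from 1 to 10 kb (20.7 to 31.1), 53.6 from 10 to 25 kb (46.2 to 61.8) and 41.2 from 25 to 50 kb (33.5 to 50.1). The interval from 10 to 25 kb lies above the density of all autosomes, 44.1 peaks per Mb. In Vmn2r regions the densities were 15.9 inside genes (11.8 to 20.9), 4.24 within 1 kb (0.107 to 23.6), 35.2 from 1 to 10 kb (27.6 to 44.4), 40.2 from 10 to 25 kb (33.2 to 48.4) and 38.6 from 25 to 50 kb (31.9 to 46.2). From 1 kb outward the 3 Vmn2r intervals overlap each other, whereas the Vmn1r intervals on each side of 10 kb do not. From 10 to 25 kb the intervals of the 2 families overlap only between 46.2 and 48.4. The step at 10 kb was not particular to Vmn1r. Near olfactory receptor genes, density was 22.3 from 1 to 10 kb (upper bound 24.7) and 45.1 from 10 to 25 kb (lower bound 40.8). Near zinc-finger genes named Zfp it rose from 49.9 to 65.4, again with intervals that do not overlap.

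**Figure D2:**
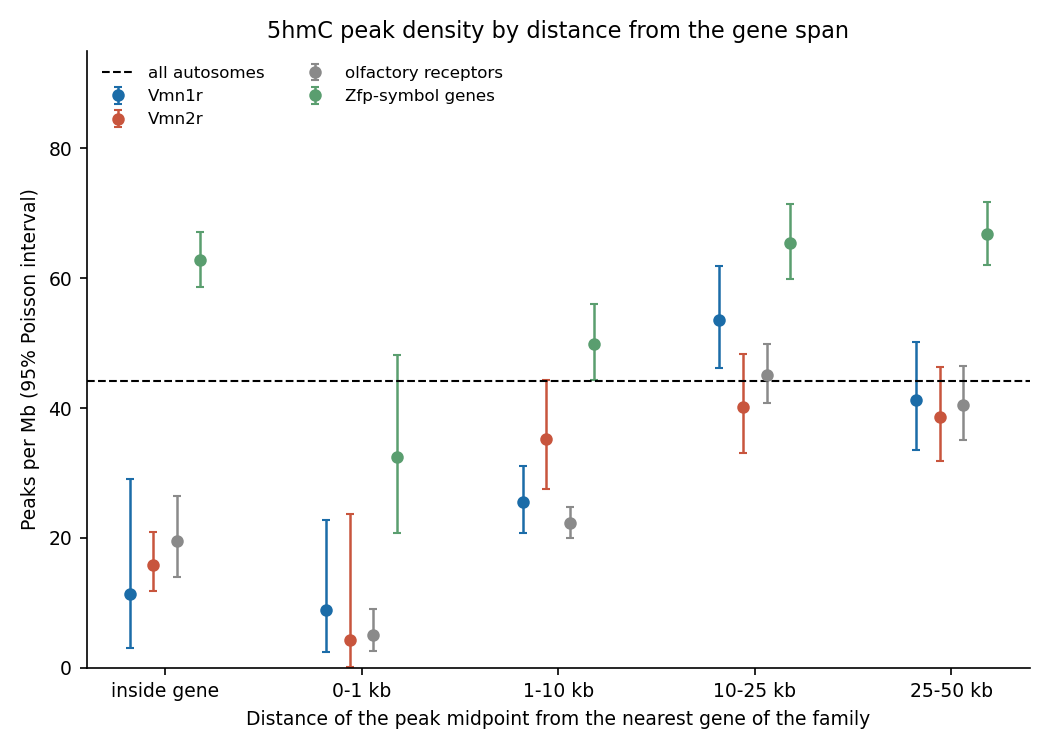
Peaks per Mb (vertical axis) by distance of the peak midpoint from the nearest gene of the family (horizontal axis), with 95% Poisson intervals and the mean of all autosomes as a dashed line. Receptor families are low inside genes and within 1 kb, while Zfp-symbol genes are at 62.7 inside genes and 32.4 within 1 kb.

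Inside genes or within 1 kb, Vmn1r regions held 8 peaks in 0.804 Mb and the remaining 9.75 Mb held 385, a density ratio of 0.252 (exact 95% interval 0.108 to 0.502). The Vmn2r ratio was 0.393 (0.286 to 0.531), from 51 peaks in 3.39 Mb and 301 in 7.86 Mb. The 2 intervals overlap. Among peaks with −log10 q of at least 5 the ratios were 0.229 (0.0467 to 0.681) and 0.364 (0.201 to 0.620), so the step away from the genes was present among strong peaks too. Olfactory receptor genes, the other large chemoreceptor family, had a ratio of 0.379 (0.281 to 0.501), which overlaps both. Zinc-finger genes named Zfp had a ratio of 0.980 (0.901 to 1.07) among all peaks. With −log10 q of at least 5, the Zfp ratio was 0.595 (0.446 to 0.786), which overlaps both receptor families at this q. That of olfactory receptor genes was then 0.193 (0.0824 to 0.385). A step among strong peaks was thus not particular to receptor genes. How many reads could be placed uniquely in these repeated gene copies was not tested.

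Peaks lay as often before as behind the nearest receptor gene. Where the strand was known, 156 of 329 Vmn1r peaks outside genes were upstream (47.4%; exact 95% interval 41.9 to 53.0%), and 157 of 298 Vmn2r peaks (52.7%; 46.8 to 58.5%). Most peaks were in sequence with no annotated gene, with 342 of 393 near Vmn1r (87.0%; 83.3 to 90.2%) and 245 of 352 near Vmn2r (69.6%; 64.5 to 74.4%). Receptor gene spans took up 0.353 Mb of the Vmn1r regions and 3.15 Mb of the Vmn2r regions, so these shares are not like for like. They were not compared with the share of bases in each category or with all autosomal peaks. Receptor genes held 4 Vmn1r peaks (1.02%) and 50 Vmn2r peaks (14.2%), and receptor pseudogenes 1 and 17. Other protein-coding genes held 20 in each family, at lower median folds of 3.795 and 3.59.

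Receptor regions had fewer peaks than the autosomes, but stronger ones. Density was 37.2 peaks per Mb near Vmn1r (33.6 to 41.1) and 31.3 near Vmn2r (28.1 to 34.7), and over all 22.1 Mb it was 0.775 of the autosomal density (0.721 to 0.833). A −log10 q of at least 5 was reached by 283 of 757 peaks (37.4%; 33.9 to 40.9%), against a background of 11.9% of autosomal peaks. Their density, 12.8 per Mb (11.3 to 14.4), was 2.43 times that of all autosomes (2.15 to 2.73). Peaks covered 3.64% of the receptor regions and 3.96% of the autosomes. The median fold was 4.59 (order-statistic 95% interval 4.46 to 4.73) against 3.34 for all autosomal peaks, and the median width 681 bp (639 to 737) against 639 bp. Near olfactory receptor genes, density was also low, at 29.6 peaks per Mb (27.8 to 31.5), while near Zfp-symbol genes it was 62.0 (59.5 to 64.5). Peaks near olfactory receptor genes had a median fold of 4.19 (4.06 to 4.31), and 29.4% (26.6 to 32.4%) reached the stricter q. These lay at 8.70 per Mb (7.73 to 9.77), against 5.27 on all autosomes. Peaks near Zfp-symbol genes had 3.36 and 11.2%, close to the autosomal values.

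**Figure D3:**
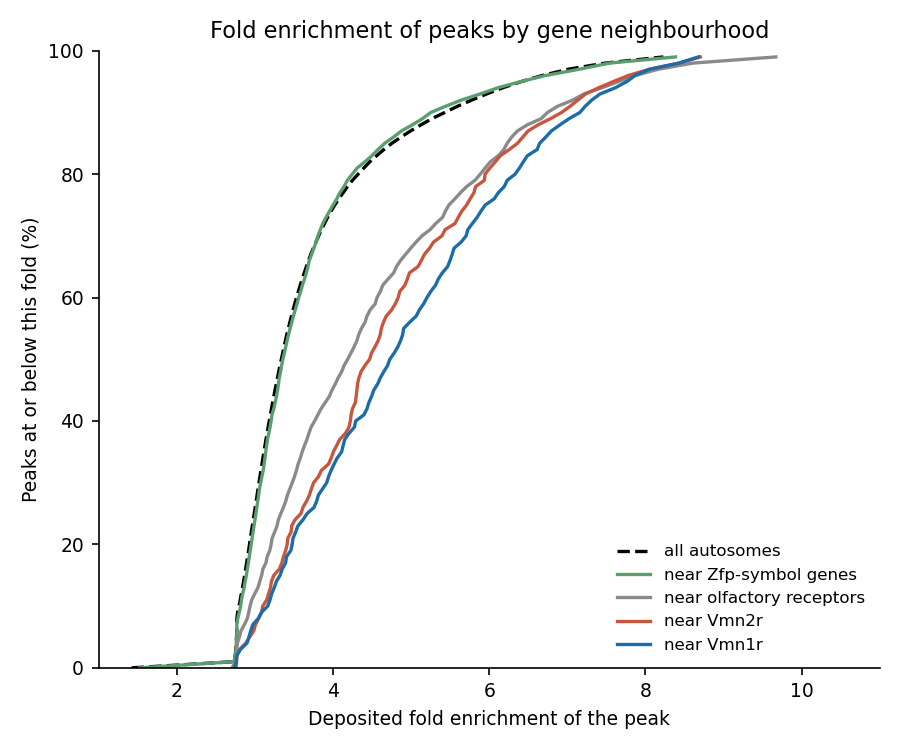
Share of peaks (vertical axis, percent) at or below a given deposited fold enrichment (horizontal axis), for peaks near Vmn1r, Vmn2r, olfactory receptor and Zfp-symbol genes and for all autosomes. Both vomeronasal curves lie to the right of the autosomal curve, with medians of 4.73 and 4.47 against 3.34.

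Peak density was higher in Vmn1r than in Vmn2r regions, by a margin that depended on single clusters. The ratio of Vmn2r to Vmn1r density was 0.841 (exact 95% interval 0.726 to 0.973). The interval included 1 without the region of Vmn1r1 on chromosome 1 (0.870; 0.750 to 1.009), without the cluster from Vmn2r29 to Vmn2r37 (0.877; 0.754 to 1.02) and without the chromosome 13 cluster (0.884; 0.759 to 1.03). The ratio was 1.00 (0.768 to 1.31) within 10 kb of the genes. From 1 to 50 kb, densities were 39.5 per Mb near Vmn1r (35.6 to 43.6) and 38.3 near Vmn2r (34.1 to 42.9), with intervals that overlap widely. Sequence inside genes or within 1 kb, where density was low, was 0.804 Mb near Vmn1r, beside 9.75 Mb farther out. Near Vmn2r it was 3.39 Mb, beside 7.86 Mb. How much of the ratio follows from this was not tested. Among peaks with −log10 q of at least 5 the ratio was 0.684 (0.535 to 0.872). The median fold was 4.73 (4.51 to 4.90) near Vmn1r and 4.47 (4.30 to 4.62) near Vmn2r, a difference of -0.26 for Vmn2r minus Vmn1r, and the intervals overlap. The stricter q was reached by 41.2% of Vmn1r peaks (36.3 to 46.3%) and 33.5% of Vmn2r peaks (28.6 to 38.7%). Coverage by peaks was 4.002% and 3.30% of the regions, and the median width 729 bp (624 to 825) and 654 bp (603 to 702).

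Density differed widely between clusters of the same family. Receptor genes within 500 kb of each other were joined, which gave 29 clusters, of which 10 held Vmn1r genes alone, 15 Vmn2r genes alone and 4 both. Vmn1r clusters ran from 26.3 to 168 peaks per Mb, Vmn2r clusters from 0 to 55.9 and mixed clusters from 27.7 to 45.2. The lowest Vmn1r density was in the largest cluster, 86 genes from Vmn1r91 to Vmn1r183 on chromosome 7 (20101158 to 24055691), with 97 peaks or 26.3 per Mb (21.3 to 32.0). Without it, Vmn1r density was 43.1 and the ratio of Vmn2r to Vmn1r 0.726, the lowest with any 1 cluster left out. The chromosome 13 cluster from Vmn1r188 to Vmn1r223 (36 genes) had 63 peaks or 51.2 per Mb (39.3 to 65.5). The large mixed cluster on chromosome 17, from Vmn2r90 to Vmn1r237, had 83 peaks or 30.2 per Mb (24.0 to 37.4). Among Vmn2r clusters, that from Vmn2r29 to Vmn2r37 had 23.1 per Mb (16.3 to 31.9), and that of Vmn2r1 to Vmn2r7 on chromosome 3 had 43.4 (29.5 to 61.5). The region of Vmn2r118 on chromosome 17 had 0 peaks, which allows up to 27.9 per Mb. Fold was high in each of the larger clusters. In all 18 clusters with at least 10 peaks the median fold was above the autosomal 3.34, from 4.01 to 5.17.

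**Figure D4:**
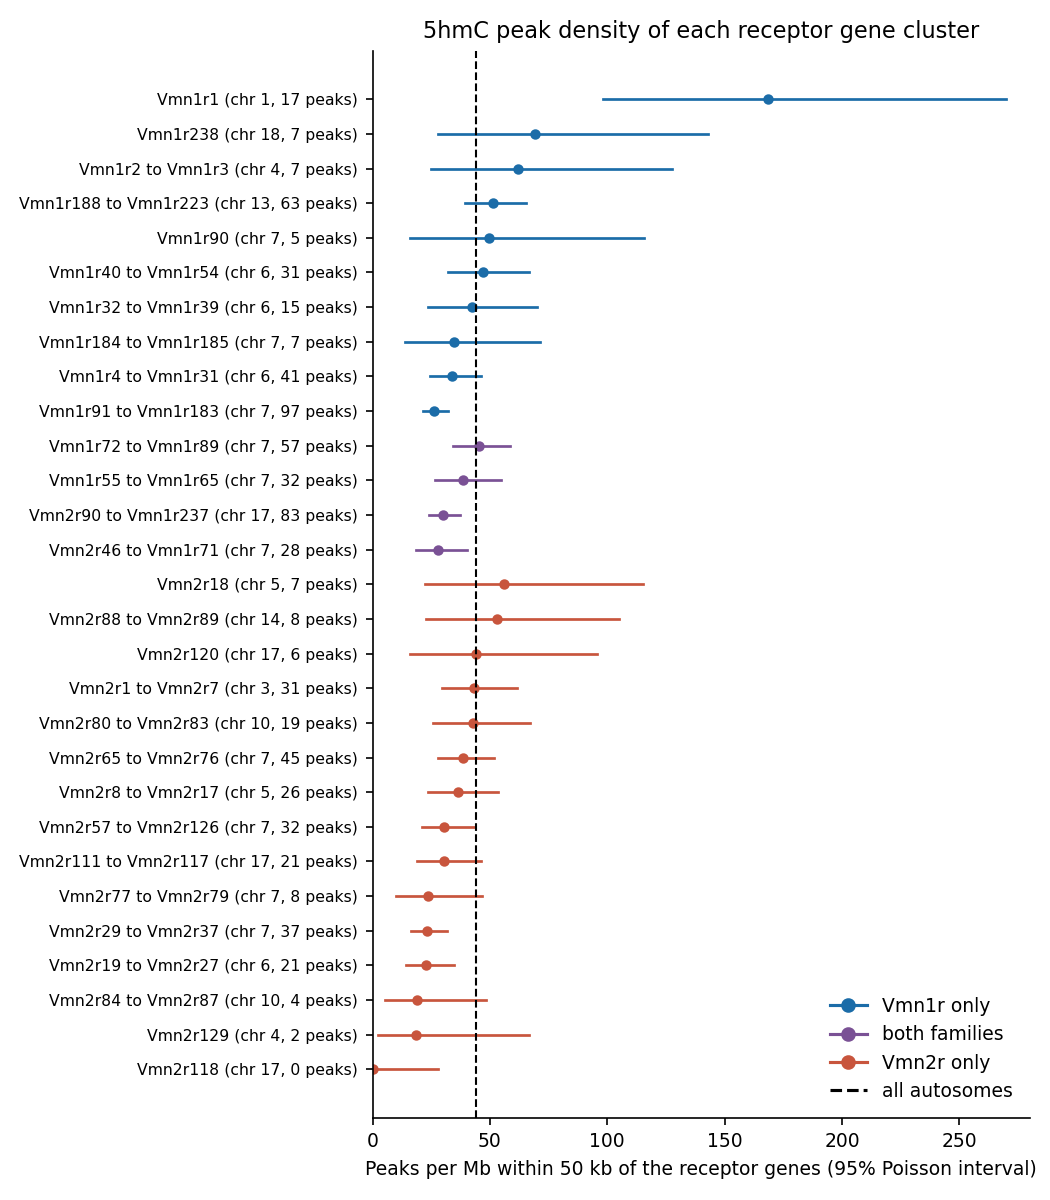
Peaks per Mb (horizontal axis, with 95% Poisson intervals) within 50 kb of the receptor genes of each of the 29 clusters, coloured by family, with the autosomal mean as a dashed line. The region of Vmn1r1 is highest at 168, and the largest Vmn1r cluster is at 26.3.

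The densest region, around the lone gene Vmn1r1 on chromosome 1 (182157178 to 182158098), had 17 peaks or 168 per Mb (98.1 to 270). Its peaks differed by side. The 10 peaks downstream of Vmn1r1 had a median fold of 3.11, from 2.76 to 7.17, and 2 of them lay in Srp9, which encodes a subunit of the signal recognition particle. The 7 upstream peaks had a median fold of 6.17, from 4.09 to 7.90, and 6 of them reached a −log10 q of 5. The 2 ranges overlap, because 1 downstream peak, at 2.87 kb from Vmn1r1, had fold 7.17.

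The midpoints of the 10 strongest peaks near Vmn1r genes lay 0.926 to 49.8 kb from the nearest receptor gene. The highest, at fold 9.84, was 13.7 kb from Vmn1r159 (chromosome 7, 22828636 to 22829352). A peak of fold 9.22 lay 10.27 kb from Vmn1r191 on chromosome 13 (22168098 to 22168735). A pair of peaks, of fold 9.01 (22770963 to 22776419) and 8.67 (22777923 to 22779336), lay between Vmn1r157 and Vmn1r158, each about 11 kb from the nearer gene. The others of the top 10 were at Vmn1r64 (8.80), Vmn1r42 (8.58), Vmn1r88 (8.52), Vmn1r183 (8.46), Vmn1r238 (8.42) and Vmn1r89 (8.20). That near Vmn1r183 lay inside Zfp180, a zinc-finger gene, at 49.8 kb. Only the Vmn1r88 peak was within 1 kb of its gene. All 10 lay outside the receptor genes. Such places were rare among all 393 Vmn1r peaks, of which 8 lay inside genes or within 1 kb, and 4 inside.

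Near Vmn2r genes, 2 of the 10 strongest peaks were those within Vmn2r29. Another was 7.46 kb from Vmn2r83 on chromosome 10 (79499353 to 79499881, fold 9.29), and 1 was 1.69 kb upstream of Vmn2r44 on chromosome 7 (8384429 to 8385429, fold 8.81). Vmn2r19 on chromosome 6 had 1 on each side, of fold 8.74 at 28.2 kb and 8.61 at 23.5 kb. The rest were at Vmn2r88 (8.67, inside the gene Gm7247), Vmn2r97 (8.58), Vmn2r72 (8.44) and Vmn2r9 (8.25, on the pseudogene Vmn2r-ps21). Apart from Vmn2r29, none lay inside a protein-coding receptor gene, where 50 of all 352 Vmn2r peaks (14.2%) lay. The strongest of the 12 peaks near both families had fold 6.21, near Vmn1r60.

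The widest peaks were not the strongest. Near Vmn2r the widest was 12.6 kb at fold 5.52, on chromosome 7 from 42884000 to 42896571 near Vmn2r63. It was followed by 7.58 kb inside Vmn2r97 (fold 4.68), 7.43 kb near Vmn2r1 (5.94), 6.72 kb near Vmn2r95 (6.35) and 6.401 kb near Vmn2r99 (5.82). Near Vmn1r the 2 widest were the peaks beside Vmn1r2 and Vmn1r238 given above, followed by 7.77 kb near Vmn1r77 (5.92), 6.49 kb near Vmn1r227 (6.06) and 5.88 kb near Vmn1r74 (4.89). Those beside Vmn1r2 (chromosome 4, 3173560 to 3182666) and Vmn1r238 (chromosome 18, 3113479 to 3121678) lay close to the opening 3 Mb of their chromosomes. At the edge of the rule, the last peaks inside 50 kb had folds of 4.52 (Vmn2r99, 49.5 kb), 7.63 (Vmn2r75, 49.6 kb) and 8.46 (Vmn1r183, 49.8 kb). The first outside had 5.02 (Vmn1r90, 50.2 kb), 5.38 (Vmn2r97, 50.3 kb) and 2.99 (Vmn1r65, 50.4 kb).

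Genes that work with the receptors in the vomeronasal organ had no peak above fold 4.28, where the median of all autosomal peaks is 3.34. In a list of 26 such genes, 7 had a gene-end peak (26.9%; exact 95% interval 11.6 to 47.8%), close to the background of 27.9%, and 12 (46.2%; 26.6 to 66.6%) were overlapped by a peak, against 64.3% of all genes. A gene-end peak with −log10 q of 5 or more was found at 0 of 26, where the background is 1.31%. Genes of signalling, transcription and B2m, the light chain of class I molecules, held all of these peaks. Trpc2, the ion channel of vomeronasal neurons, had a gene-end fold of 3.42 and 35.8% of its span covered. Gnai2, the G-protein gene of V1R neurons, had 3.44 and 24.8%. Gnao1, its counterpart in V2R neurons, had no gene-end peak but 13 peaks in its span, up to fold 3.91. The phospholipase gene Plcb2 had 3.76, the channel gene Ano2 2.75 and Tfap2e, a transcription factor gene of the V2R lineage, 2.75. Atf5 had 3.93 and B2m 3.78. Bcl11b, another transcription factor gene of these neurons, had 21 peaks over 32.6% of its span, up to fold 4.28. Lhx2, Meis2 and Ano1 had peaks in their spans but no gene-end peak, up to fold 4.25, 3.94 and 3.87. All 8 H2-M genes, whose products are made with V2R receptors in the same neurons, and all 5 formyl peptide receptor genes (Fpr3, Fpr-rs3, Fpr-rs4, Fpr-rs6 and Fpr-rs7) were free of peaks, both at their ends and within. Gng8 likewise had none. These 14 genes are short, with spans of 0.972 to 3.72 kb, against 4.40 to 350 kb in the 12 genes overlapped by a peak.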

How the data were processed

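5hmC-Seal peaks of 1 captured library of pooled wild-type cells were used, and the library before capture was not analysed here. MACS2 2.1.0, a peak caller, and Bowtie2 2.5.0, an aligner, are listed with build mm10, per the submitters' processing notes, as are deepTools 3.5.1, SAMtools 1.16.1, Trim Galore and bedtools 2.27.1. Settings, and what was done with reads that fit more than 1 place, are not given in the sources here. For each broad peak the authors' deposited list gives a fold enrichment, a ratio of captured signal to the caller's background, and a −log10 p and −log10 q. A score, deposited in a further column, equals 10 times the −log10 q without its decimals for 108385 of 108395 peaks and was not used. Weak calls are included, down to a −log10 q of 1.01.

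Gene spans came from a RefSeq table of GRCm38.p6, the same build as mm10. Of 355 protein-coding receptor genes, 351 were used. Left out were 1 on a sex chromosome and 3 in the opening 3 Mb of a chromosome, where positions are those of scaffolds. Promoter windows and strands came from RefSeq (GRCm38.p6), and 1674 pairs of overlapping windows on opposite strands all matched as reverse complements. A region is every base within 50 kb of 1 family and not of the other. Internal assembly gaps were not removed. Poisson and Clopper-Pearson 95% intervals cover counting error only, and the interval of a median covers the spread of peaks only. Neighbouring peaks are not independent. Genes and peaks were named by rule: every receptor gene with a gene-end peak (overlap of at least 1 bp), the 10 highest and 5 widest peaks of each family, each cluster, and the list of vomeronasal genes. Genes overlapped by several peaks, Clcn4, Srp9, Parp2, the promoters and the sides of Vmn1r1 were chosen after their values were seen. The members, lists and rules were chosen with earlier results of these data known. Scripts used Python 3.11.15, pandas 2.3.3 and SciPy 1.17.1, and were tested on simulated data.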

Additional observations from a re-analysis of the deposited data

How the results depend on the processing

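With peaks of −log10 q of at least 3 or 5, Vmn1r density was 24.6 and 15.3 per Mb and Vmn2r density 19.7 and 10.49, since fewer peaks remain. Median fold was then 5.52 and 6.25 near Vmn1r and 5.27 and 6.20 near Vmn2r. At 5, the density ratio was 0.684 and the difference of medians -0.053. Within 10 kb, densities were 22.7 in both families, and the ratio turned from 0.841 to 1.00. With a gene-end window of 250 bp, 0.873% of Vmn1r genes had a peak. The other 32 values stayed within the main interval, or kept the sign of the difference within the interval of a median. Leaving out each of the 29 clusters in turn gave 35.4 to 43.1 per Mb for Vmn1r, 30.5 to 32.6 for Vmn2r, and ratios of 0.726 to 0.884, with upper bounds above 1 (1.009, 1.02 and 1.03) without the Vmn1r1 region, the Vmn2r29 cluster or the chromosome 13 cluster. Median folds ran from 4.68 to 4.79 and from 4.41 to 4.51, and their difference from -0.32 to -0.21. Gene-end shares ran from 3.21 to 4.90% for Vmn1r and 3.36 to 5% for Vmn2r. Density ratios of the first 1 kb to the rest, whose alternatives were chosen after seeing the data, ran from 0.169 to 0.307 and from 0.351 to 0.448. No paired analysis was possible because the study has 1 captured library and no test. Depth is unknown, so no error of a single fold could be given.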

Other observations

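The regions around the receptor genes hold all or part of 69 other protein-coding genes, whose peaks were counted over the whole span. Of these genes, 9 had a gene-end peak (13.04%, exact 95% interval 6.14 to 23.3%), against 27.9% of all autosomal protein-coding genes. A peak overlapped 29 of them (42.0%, 30.2 to 54.5%), against 64.3% of all autosomal protein-coding genes. At a −log10 q of 5 or more, 4 (5.80%) had a gene-end peak, against 1.31%. These are Gm11295 on chromosome 13 (fold 7.31), wholly covered by its peak, the zinc-finger gene Zfp180 (6.63), Gm52720 on chromosome 4 (6.16) and Gm29986 on chromosome 17 (5.75). High folds also lay inside Nlrp genes of chromosome 7 that reach into the regions. The highest was 8.69 in Nlrp9b, 7.396 in Nlrp4c, 7.37 in Nlrp4e and 5.57 in Nlrp4b, while Nlrp9a had no peak. These values cover the whole gene, so such a peak can lie more than 50 kb from a receptor gene. That of Nlrp9b is not among the peaks of the receptor regions. The Nlrp genes belong to a family known for roles in oocytes and early embryos.

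Besides Vmn2r29, promoter windows of 6 genes were touched by a peak near a receptor gene, and 2 of them lay wholly in one. They are shown because they carry fewer CG than Vmn2r29 under a peak that likewise contains the whole window. Gm52720 (chr4:3200300-3200549, minus strand) had 7 CG under a peak of fold 6.16, and the non-coding gene 4933404K08Rik (chr13:23278100-23278349, plus strand) had 4 CG under a peak of fold 5.09. Capitals again mark CG.
Gm52720: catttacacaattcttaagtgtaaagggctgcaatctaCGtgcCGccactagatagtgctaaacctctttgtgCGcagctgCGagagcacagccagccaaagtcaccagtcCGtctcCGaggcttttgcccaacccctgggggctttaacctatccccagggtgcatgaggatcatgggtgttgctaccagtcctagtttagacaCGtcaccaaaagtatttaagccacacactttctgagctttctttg
4933404K08Rik: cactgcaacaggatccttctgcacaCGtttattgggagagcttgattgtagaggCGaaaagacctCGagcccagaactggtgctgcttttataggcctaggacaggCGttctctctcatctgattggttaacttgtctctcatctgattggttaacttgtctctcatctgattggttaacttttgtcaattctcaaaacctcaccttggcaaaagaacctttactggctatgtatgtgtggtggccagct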
